A study of Mus musculus with 72 samples.

Results

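Blockade of TWEAK alone was compared with a control antibody in the colon of mice with acute chemical colitis, in the experiment that the labels number 7. The 2 groups were chosen by treatment and experiment from the labels and comprise 16 of the 72 arrays of the series, 1 array per mouse. The treated mice (n = 8) received the anti-TWEAK antibody mP2D10 at 10 mg/kg, and their controls (n = 8) received an IgG2a antibody against human CD20 at 10 mg/kg. All 16 were wild-type Balb/c mice, and all had colitis, induced with trinitrobenzene sulfonic acid (TNBS), a hapten that provokes intense inflammation of the colon, given once into the rectum in PBS and ethanol at 70 µg per g body weight. The antibodies were injected shortly before TNBS. Total RNA of the colon was taken on day 4. No age, litter or cage is given, so the p-values measure the spread between these mice alone. The values are log2 levels on Affymetrix expression arrays as normalised by the authors, and differences are anti-TWEAK minus control IgG on that log2 scale.

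TWEAK, a relative of TNF, acts through a small receptor, Fn14, which is the product of Tnfrsf12a. Fn14 is scarce in most resting tissue and is induced after injury, on epithelium, fibroblasts and endothelium among other cells. Binding recruits TRAF adaptor proteins and activates both the canonical NF-kB pathway, which drives inflammatory genes, and the non-canonical one, which runs through NIK and the p100 precursor encoded by Nfkb2. In the colon TWEAK is known for signals to epithelial cells during injury.

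The 16 arrays were alike in overall quality. Array medians were 4.64 to 4.72 in anti-TWEAK mice and 4.63 to 4.77 in control IgG mice. The 3 prime minus 5 prime difference of Actb, which grows as RNA degrades, was 0.93 to 1.12 in anti-TWEAK mice and 0.97 to 1.18 in control IgG mice. Running numbers in the array names place the anti-TWEAK arrays at 19 to 26 and the control arrays at 5 to 12 of the same run, so treatment and place in the run cannot be told apart.

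Mice 6 and 7 of the anti-TWEAK group stood apart from the other 6 in inflammation. The mean level of the neutrophil markers (13 of 20 tested) was 6.62 in mouse 6 and 5.42 in mouse 7, and 9.92 to 10.8 in the other anti-TWEAK mice, against 8.23 to 11.1 in control IgG mice. The canonical NF-kB targets averaged 8.87 and 8.29 in those 2 mice and 9.80 to 10.1 in the other 6, against 9.26 to 10 in control IgG mice. Both lists therefore split the treated group, and the 2 low mice lay below every control mouse. The cytokines and chemokines averaged 7.10 and 6.54 in mice 6 and 7 and 8.53 to 9.01 in the other treated mice, against 7.81 to 8.98 in control IgG mice. In experiment 10, neutrophil markers were at 6.17 to 9.03 in control IgG mice with colitis and at 2.40 to 3.67 in naive mice. The labels of naive mouse 1 contradict each other, and it was kept as naive by its title (3.02, inside the range of the other naive mice). Mouse 6 thus lay inside the range of the experiment 10 controls, mouse 7 below it, and both above the naive mice.

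Single genes of inflammation repeated this split. Il1b, the cytokine interleukin 1 beta, was at 10.90 and 9.81 in mice 6 and 7 and between 12.57 and 13.58 in the other anti-TWEAK mice, against 12.79 to 13.77 in control IgG mice. Cxcr2, the receptor that draws neutrophils to tissue, was at 5.12 and 2.08 in mice 6 and 7, where the lower value is the floor of the table, against 7.17 to 8.89 in control IgG mice. S100a9, a subunit of calprotectin, was at 13.62 and 12.48 in these 2 mice, against 14.55 to 15.24 in control IgG mice. For all 3 genes these mice lay below every control mouse. Ngp, a granule protein of immature neutrophils, had a different pattern: it lay at the floor in mice 6 and 7 and between 7.87 and 11.02 in the other anti-TWEAK mice, against 2.08 to 10.16 with a median of 2.26 in control IgG mice. Its difference of 3.23 ± 1.7 (SE) did not pass the test (limma adjusted p = 0.484).

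Interferon-stimulated genes divided the treated mice at another place. Their list mean was 9.71, 9.90 and 9.64 in mice 5, 6 and 7, and 8.09 to 8.52 in the other 5 anti-TWEAK mice, against 8.44 to 9.31 in control IgG mice. Ifit2, an antiviral protein induced by interferon, was at 9.84, 9.76 and 9.51 in the same 3 mice and at 7.65 to 8.28 in the other 5, against 7.50 to 8.75 in control IgG mice. The interferon-stimulated genes were thus above all controls in 3 treated mice and in or below the control range in 5. None of the 21 members tested was called between the groups.

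**Figure D1:**
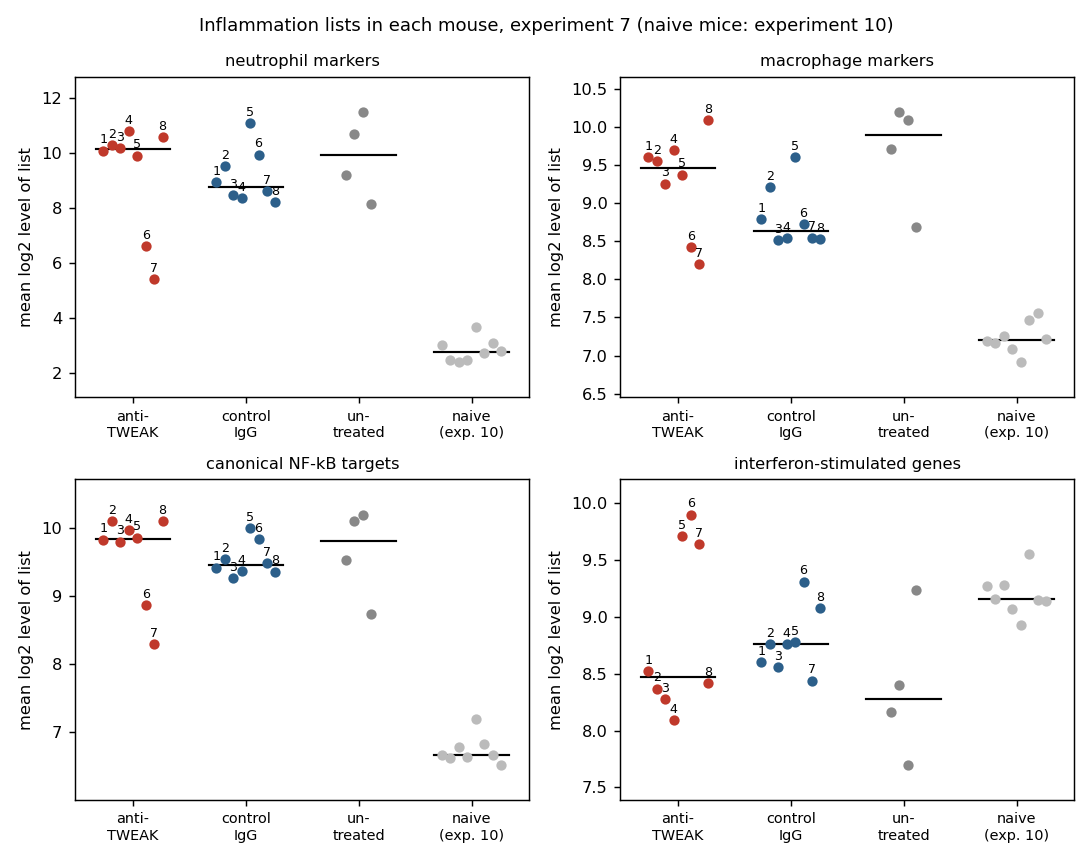
Mean log2 level (vertical axis) of 4 gene lists in each mouse of experiment 7, with naive mice of experiment 10 on the right of each panel; each point is 1 mouse, digits are the mouse numbers and bars are group medians. Anti-TWEAK mice 6 and 7 lie below all control IgG mice for neutrophil markers (6.62 and 5.42) and canonical NF-kB targets, and mice 5, 6 and 7 lie above all of them for interferon-stimulated genes.

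Pancreatic RNA was present in several of the colon samples, more often in the anti-TWEAK group. The mean of the exocrine pancreas markers (11 of 14 tested) was 12.3, 8.98, 5.82 and 11.8 in anti-TWEAK mice 1, 2, 3 and 8 and 4.33 to 4.84 in the other 4, against 7.86 in control IgG mouse 8 and 4.31 to 4.76 in the other control mice. Ctrb1, the digestive enzyme precursor chymotrypsinogen B, was at 14.03 and 14.06 in anti-TWEAK mice 1 and 8 and at 3.04 in anti-TWEAK mice 4 to 7 and in 7 of 8 control mice. Cela3b, an elastase, was between 2.08 and 2.53 in anti-TWEAK mice 4 to 7, close to the floor of 2.08. The 4 arrays with a pancreas mean over 5.5 in the anti-TWEAK group and the 1 in the control group are called pancreas-positive. Skeletal muscle markers ranged from 4.04 to 12.2 in anti-TWEAK mice and from 8.03 to 12.4 in control IgG mice. Squamous and hair follicle markers ranged from 4.90 to 8.74 in anti-TWEAK mice and from 3.60 to 9.18 in control IgG mice, and all 13 members tested had negative differences, none of them called.

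**Figure D2:**
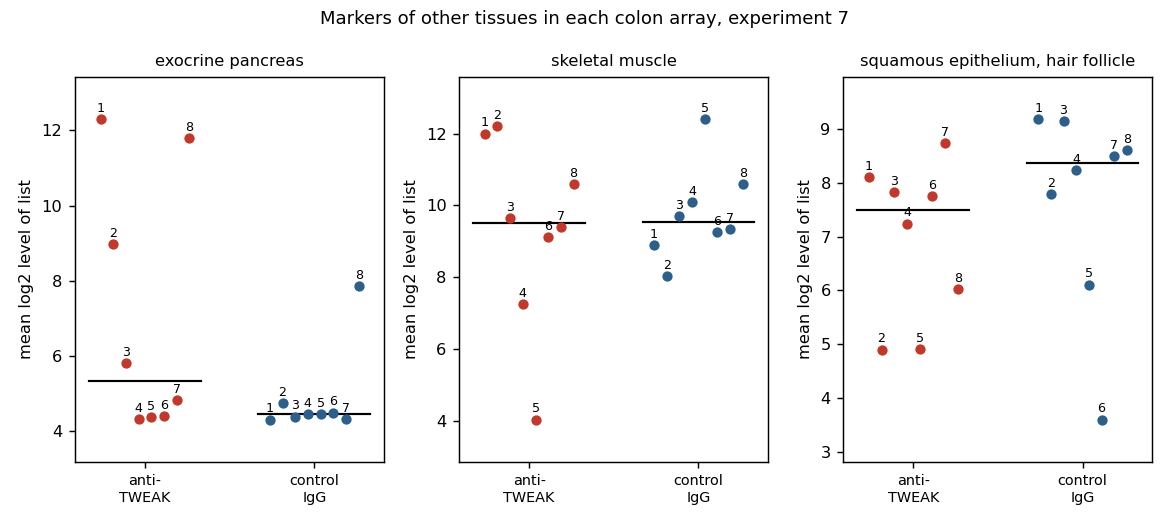
Mean log2 level (vertical axis) of markers of 3 other tissues in the 8 anti-TWEAK and 8 control IgG arrays; each point is 1 mouse with its number, and bars are group medians. Pancreas markers reach 12.3 in anti-TWEAK mouse 1 and 11.8 in mouse 8, while 7 of the 8 control mice lie between 4.31 and 4.76.

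Very few genes were called between the anti-TWEAK and control IgG groups, which does not show that the others were unchanged. Of 12534 genes tested, 2 were called at an adjusted p under 0.05, which is 0.016% of the genes tested, and both were lower in anti-TWEAK mice. Trappc13, a subunit of the TRAPP complex of vesicle transport, was at 10.07, 10.26 and 10.32 (lowest, median and highest) in anti-TWEAK mice, against 10.41, 10.53 and 10.64 in control IgG mice. The groups did not overlap. Trappc13 fell by 0.29 on the log2 scale (SE 0.043, limma adjusted p = 0.0349). Both other probe sets of Trappc13 failed to show the fall, with differences of -0.01 and 0.23. The call was also lost when 1 of 13 of the 16 arrays was left out (adjusted p up to 0.12). The 250 bases before its start (RefSeq, GRCm38.p6, chr13:104178467-104178716, minus strand), shown because Trappc13 is the called gene with a known role, held none of the 5 motifs searched, and 39.2% of them are G or C.
Trappc13: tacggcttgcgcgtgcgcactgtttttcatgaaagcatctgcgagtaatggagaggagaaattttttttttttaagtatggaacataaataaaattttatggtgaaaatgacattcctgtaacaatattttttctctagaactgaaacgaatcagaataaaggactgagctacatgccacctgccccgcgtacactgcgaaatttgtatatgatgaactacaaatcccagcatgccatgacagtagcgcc

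The second called gene was the predicted gene Gm3715, which lies outside the naming rule and is named after its values were seen. It averaged 2.43 ± 0.52 in anti-TWEAK mice and 3.92 ± 0.40 in control IgG mice (SD, n = 8 each). The difference was -1.50 ± 0.22 (SE, limma adjusted p = 0.0349), and 5 of the 8 anti-TWEAK arrays lay at the floor, where values have no order. In experiment 10 the difference had the opposite sign (1.52, adjusted p = 0.13).

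A broader threshold gave 39 genes at an adjusted p under 0.25 (0.311% of genes tested), 14 higher and 25 lower. At an unadjusted p under 0.05 there were 1390 genes (11.1%), 572 higher and 818 lower, and quantile normalization gave 698 higher and 650 lower. The median difference over all genes was -0.02.

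The genes next in order of p, which did not pass, were mostly lower in anti-TWEAK mice. Noct, the clock-controlled phosphatase Nocturnin, was at 10.95, 11.08 and 11.29 in anti-TWEAK mice (lowest, median, highest), against 11.27, 11.50 and 11.60 in control IgG mice, and 1 anti-TWEAK mouse reached into the control range. Its difference was -0.36 ± 0.057 (SE, limma adjusted p = 0.0545). Taf12, a subunit of the general transcription factor TFIID, was at 9.79 to 10.02 in anti-TWEAK mice, against 10.09 to 10.23 in control IgG mice (difference -0.22, adjusted p = 0.0593), with no overlap. Chchd4, an oxidoreductase of protein import into mitochondria, differed by -0.31, the GTPase gene Noa1 by -0.16 and Ndufaf5, an assembly factor of complex I, by -0.28, each at an adjusted p of 0.111. Ddx31, a putative RNA helicase (-0.68, adjusted p = 0.111), Chtf8, which helps load the replication clamp (-0.45, adjusted p = 0.186), and the lamin gene Lmnb2 (-0.17, adjusted p = 0.186) were in the same range.

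Genes with positive differences were further from the threshold. Cyp26b1, an enzyme that degrades retinoic acid, was at 2.76, 3.53 and 4.41 in anti-TWEAK mice, against 2.08, 2.63 and 2.92 in control IgG mice, so that 1 treated mouse lay among the controls. Its difference of 1.07 ± 0.20 (SE) had an adjusted p of 0.111 in limma. Cfb, complement factor B, was at 10.43 to 10.82 in anti-TWEAK mice, against 10.09 to 10.45 in control IgG mice (difference 0.29, adjusted p = 0.222). Cd40, a TNF receptor family member on B cells and macrophages, was at 5.81 to 6.12 in anti-TWEAK mice, against 5.53 to 5.85 in control IgG mice (difference 0.28, adjusted p = 0.248). Dock10, an exchange factor for small GTPases, differed by 0.57 and the carboxylesterase Ces2g by 0.33, both at an adjusted p of 0.222.

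Only 6 genes (0.0479% of those tested) had 8 anti-TWEAK values that did not overlap the 8 control values. Kif21b, a kinesin motor, was the one above, at 5.01 to 5.32 in anti-TWEAK mice, against 4.52 to 4.95 in control IgG mice. Trappc13, Taf12, Chchd4, Chordc1 and Arih1 lay below. Chordc1, a cochaperone of Hsp90, was at 12.08 to 12.26 in anti-TWEAK mice, against 12.27 to 12.72 in control IgG mice. Arih1, a ubiquitin ligase, was at 11.05 to 11.13 in anti-TWEAK mice, against 11.15 to 11.33 in control IgG mice, but its 5 other probe sets had differences from -0.35 to 0.06. The gap between the groups was 0.01 for Chordc1 and 0.02 for Arih1.

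**Figure D3:**
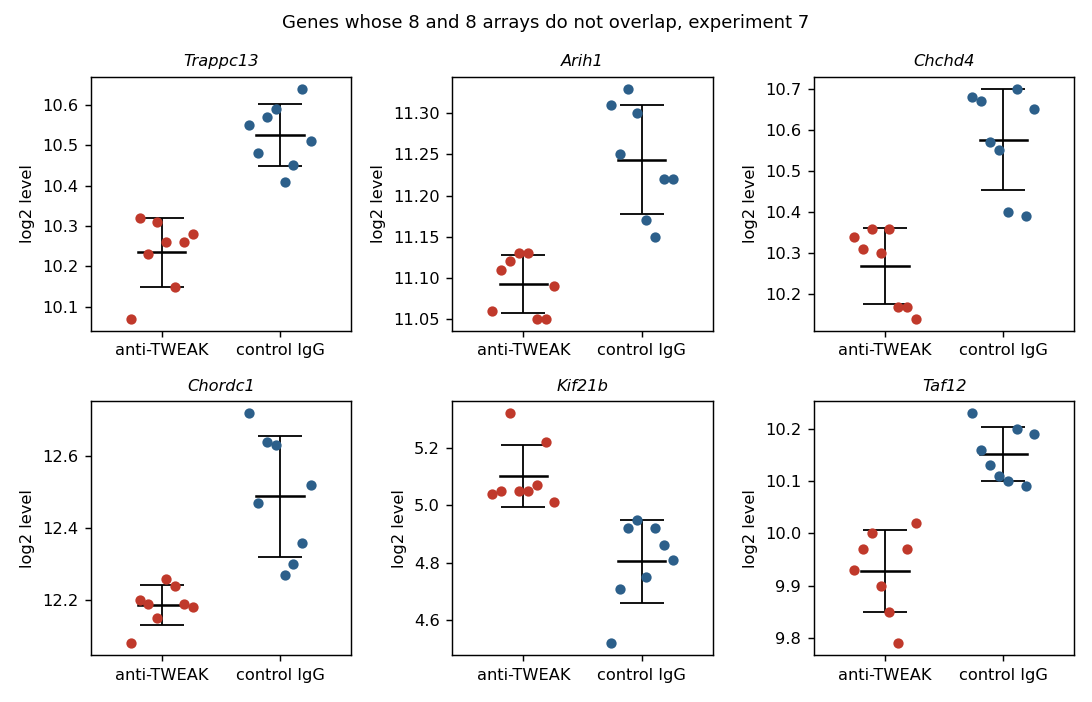
Log2 levels (vertical axis, a separate scale in each panel) of the 6 genes whose anti-TWEAK and control IgG arrays do not overlap; each point is 1 mouse, and bars are the mean and SD (n = 8 each). Trappc13 passed the test at an adjusted p of 0.0349, and Kif21b is the gene of the 6 that lies higher in anti-TWEAK mice.

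The intervals bound how large most measured differences could be. Genes near the floor are among those tested, 19 of them at the floor on all 16 arrays. Their narrow intervals do not bound a change in RNA. The 95% interval of the difference lay inside -0.5 to 0.5 for 80.17% of the genes tested and inside -1 to 1 for 93.64%. Absolute differences of at least 1 occurred in 100 genes (0.798%). The SD was larger among anti-TWEAK mice in 58.07% of genes, with a median SD of 0.163 in anti-TWEAK mice and 0.154 in control IgG mice. The widest spreads belonged to genes of the other tissues: Reg2, Cela3b and Ctrb1 had SDs of 5.20, 5.10 and 5.01 in anti-TWEAK mice and 2.65, 2.59 and 2.35 in control IgG mice.

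None of the 24 tested genes (of 31) of the TWEAK, TNF and NF-kB pathway was called. An unadjusted p under 0.05 was found for 2 of the 24, where 11.1% of all genes had one, so the pathway did not stand out by this count. For 18 of the 24, the 95% interval lay inside -0.5 to 0.5. Tnfrsf12a, the TWEAK receptor Fn14, was at 8.17, 8.86 and 9.19 in anti-TWEAK mice (lowest, median, highest), against 7.74, 9.02 and 9.53 in control IgG mice. The groups overlapped over most of their range, and the lowest value of all was a control mouse. Its difference was -0.15 (95% interval -0.61 to 0.31, limma adjusted p = 0.832). Its second probe set gave -0.10. The TNF receptors Tnfrsf1a and Tnfrsf1b differed by 0.08 and 0.07.

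Cd163, a macrophage scavenger receptor that also binds TWEAK, had the largest difference of the pathway. It was at 10.36, 11.71 and 12.48 in anti-TWEAK mice, against 9.81, 10.68 and 12.01 in control IgG mice, with mice 6 and 7 the lowest of the treated group. The difference was 0.86 ± 0.35 (SE, unadjusted p = 0.0276, limma adjusted p = 0.395). Traf2, an adaptor of Fn14 and TNF receptors, was at 3.22 to 3.70 in anti-TWEAK mice, against 3.43 to 4.34 in control IgG mice (difference -0.29, adjusted p = 0.395).

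The 11 NF-kB subunits and inhibitors tested ranged from -0.22 for Bcl3, a coactivator of the inhibitor family (adjusted p = 0.599), to 0.15 for the inhibitor Nfkbie (adjusted p = 0.822). Relb, the partner of p52 in non-canonical signalling, differed by -0.13 (95% interval -0.31 to 0.05), Nfkb2 by -0.01 and Rela by 0.02. Among inhibitors, Nfkbia differed by -0.00 (95% interval -0.13 to 0.13), Tnfaip3 by 0.01 and Tnip1 by 0.02. Map3k14, which encodes NIK, lay at the floor on all 16 arrays and was not tested. Tnf was at the floor on 4 anti-TWEAK and 6 control arrays and was not tested either. Of the 28 canonical NF-kB targets tested, 20 had positive differences, with a median of 0.09, and 0 were called or had an unadjusted p under 0.05. The 5 non-canonical NF-kB targets had a median of 0.20 and 0 calls, and Tnfsf11, the ligand RANKL, had the largest difference of them (1.28 ± 0.65, SE, adjusted p = 0.478). Leaving out the pancreas-positive arrays gave a median of -0.11 for the canonical targets, with mice 6 and 7, which are low in these genes, then 2 of the 4 anti-TWEAK mice left.

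**Figure D4:**
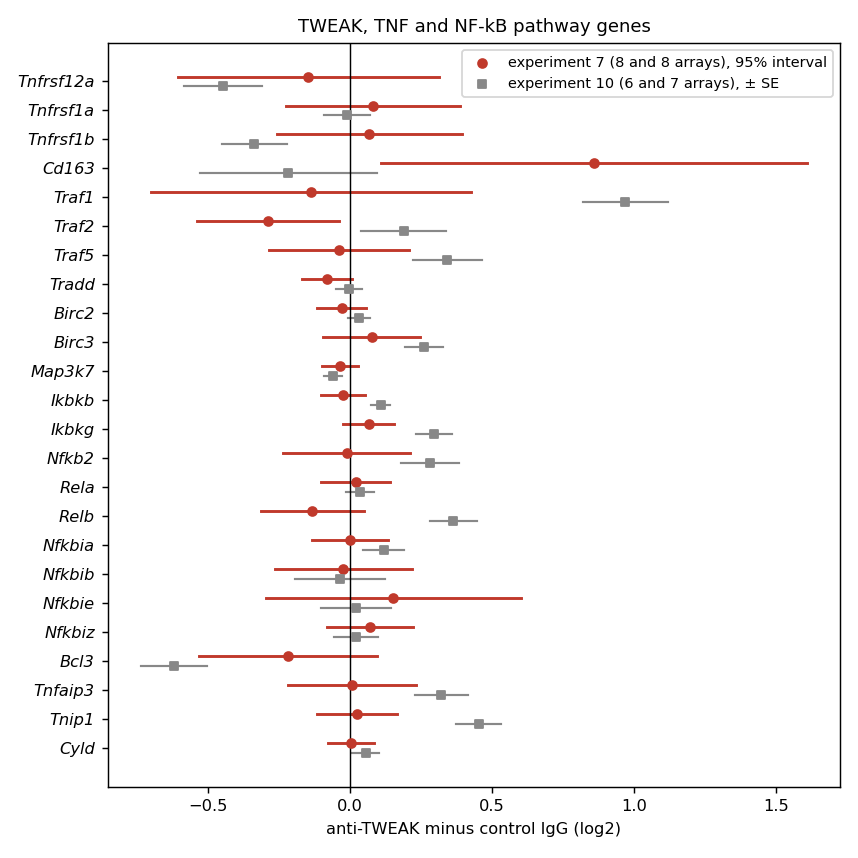
Difference in log2 level, anti-TWEAK minus control IgG (horizontal axis), of the 24 tested pathway genes; circles are experiment 7 with the 95% interval, squares experiment 10 with the SE. In experiment 7 the intervals of Cd163 (0.86) and Traf2 (-0.29) lie to 1 side of 0, and neither passed the adjusted test.

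Genes of macrophages, vessels and stroma were mostly higher in anti-TWEAK mice, without any call. RNA of bulk colon cannot tell more cells of a type from more RNA per cell. All 15 endothelial markers had positive differences, with a median of 0.30, against 5188 of 12534 genes with positive differences and a median of -0.02 over all genes. At an unadjusted p under 0.05, 6 of the 15 were higher, where 4.56% of all genes were. Vwf, the von Willebrand factor of endothelial cells and platelets, was at 8.02, 8.42 and 8.93 in anti-TWEAK mice, against 7.53, 7.85 and 8.33 in control IgG mice. Its difference was 0.57 ± 0.15 (SE, limma adjusted p = 0.276). Plvap, a protein of the diaphragms of capillary pores, differed by 0.36 (adjusted p = 0.315) and Emcn, endomucin, by 0.30 (adjusted p = 0.348).

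Among the monocyte and macrophage markers, 19 of 21 had positive differences, with a median of 0.38, and 6 were higher at an unadjusted p under 0.05. C1qb, a chain of complement C1q made by tissue macrophages, was at 12.74, 13.22 and 13.64 in anti-TWEAK mice, against 12.57, 12.66 and 13.22 in control IgG mice. The groups overlapped in part, and the difference was 0.41 ± 0.12 (SE, limma adjusted p = 0.322). Mrc1, the mannose receptor, differed by 0.38 and Csf1r, the receptor for macrophage colony-stimulating factor, by 0.38. Among matrix and fibroblast genes 19 of 20 had positive differences (median 0.14), 6 of them at an unadjusted p under 0.05, led by the receptors Pdgfra (0.28) and Pdgfrb (0.33). Mmp2, a gelatinase of stromal cells, differed by 0.46 (adjusted p = 0.354).

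The 3 lists were refitted for the pancreas markers. In a fit with the pancreas mean as a covariate, chosen after the data were seen, the median of the endothelial markers was 0.24 with 3 at an unadjusted p under 0.05. The monocyte and macrophage markers then had a median of 0.23 with 1, and the matrix and fibroblast genes 0.10 with 2. Without the pancreas-positive arrays the medians were 0.27, 0.16 and 0.11 in the same order of lists, but mice 6 and 7 then make up 2 of the 4 anti-TWEAK mice left, and the neutrophil markers had a median of -1.08. The endothelial median was 0.30 with all arrays, and 14 and 13 of 15 members were positive in the 2 settings. Without the pancreas-positive arrays, 2 endothelial markers were higher at an unadjusted p under 0.05. For monocyte and macrophage markers it was 1 and for matrix and fibroblast genes 0, against 6 in each list with all arrays. Pancreas-positive arrays were 4 of 8 anti-TWEAK and 1 of 8 control arrays, so neither setting separates treatment from pancreatic RNA. The part of pancreatic RNA in these differences was not tested further.

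With all mice, no heat shock gene was called. Of the 14 tested, 12 had negative differences, where 7346 of all 12534 genes did, and the median was -0.06, against -0.02 over all genes. At an unadjusted p under 0.05, 4 were lower, where 6.53% of all genes were. Without anti-TWEAK mice 6 and 7 the list had 7 positive and 7 negative differences and a median of -0.01. In that refit 5 members were lower and 1 higher at an unadjusted p under 0.05, where 1650 and 1129 of all genes were. There 2 were called lower, where 164 of all genes were. With the pancreas covariate 12 differences were negative and 2 positive, and 4 were lower at an unadjusted p under 0.05. Hspa1b, an inducible Hsp70 chaperone, was at 12.14, 12.34 and 12.90 in anti-TWEAK mice, against 12.25, 13.02 and 13.34 in control IgG mice. The groups overlapped, with control mouse 6 as low as the treated mice. Hspa1b differed by -0.51 ± 0.15 (SE, limma adjusted p = 0.315), and its other 2 probe sets by -0.70 and -0.84.

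Its neighbour Hspa1a differed by -0.70 (adjusted p = 0.322). The Hspa1a and Hspa1b genes are near-identical copies, so their probe sets may share targets and do not count as separate observations. Dnaja1, an Hsp40 partner of Hsp70, was at 12.21, 12.40 and 12.45 in anti-TWEAK mice, against 12.32, 12.61 and 12.80 in control IgG mice, and differed by -0.24 ± 0.067 (SE, adjusted p = 0.292). All 3 of its probe sets gave differences between -0.26 and -0.24. Hsph1, a nucleotide exchange factor for Hsp70, differed by -0.35 (adjusted p = 0.34), and Chordc1, outside the list, differed by -0.30 (adjusted p = 0.186).

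The 250 bases before the start of Hspa1a and of the first listed start of Dnaja1 are shown because these chaperones are classical targets of heat shock factor. Both are from RefSeq on GRCm38.p6, with matches to the inverted pair GAANNTTC, searched on both strands, in capitals. The Hspa1a window is chr17:34972157-34972406 on the minus strand, with the match 104 bases before the start, and the Dnaja1 window is chr4:40722218-40722467 on the plus strand, with the match 124 bases before it. The Hspa1b window is identical to that of Hspa1a at 247 of 250 bases and has the match at the same place. Of all 32851 promoter windows of this length, 6.69% hold the pattern. The windows of the other 2 listed starts of Dnaja1, of both listed starts of Hsph1, and of Chordc1 and Trappc13 do not.
Hspa1a: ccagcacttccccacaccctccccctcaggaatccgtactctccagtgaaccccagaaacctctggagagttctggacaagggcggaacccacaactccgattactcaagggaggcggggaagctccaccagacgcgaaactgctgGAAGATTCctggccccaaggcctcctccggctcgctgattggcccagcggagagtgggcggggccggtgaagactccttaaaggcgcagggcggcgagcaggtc
Dnaja1: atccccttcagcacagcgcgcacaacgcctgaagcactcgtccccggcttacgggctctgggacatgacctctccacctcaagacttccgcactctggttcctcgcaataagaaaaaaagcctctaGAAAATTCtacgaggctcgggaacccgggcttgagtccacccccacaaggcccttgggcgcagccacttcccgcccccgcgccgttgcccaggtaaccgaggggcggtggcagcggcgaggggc

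No gene of the metabolism or clock lists was called. Of 19 oxidative phosphorylation genes 18 had negative differences, with a median of -0.06 and a range of -0.12 to 0.01, and 6 were lower at an unadjusted p under 0.05. Of all 12534 genes, 7346 had negative differences, 6.53% were lower at that p and 4.56% were higher. The 6 included Cycs, cytochrome c (-0.08), and Ndufv1, a subunit of complex I (-0.10). Other probe sets of Cycs gave -0.07, 0.07 and, near the floor, -0.04, so its sign depends on the probe set. Those of Ndufv1 gave -0.08 and -0.08. Among 14 hypoxia and glycolysis genes, 4 were lower at that level, led by Ldha, lactate dehydrogenase A, at 14.12 to 14.37 in anti-TWEAK mice, against 14.29 to 14.44 in control IgG mice (difference -0.12, limma adjusted p = 0.34). The hypoxia list ranged from -0.75 to 0.20. Of 16 circadian clock genes, which ranged from -0.58 to 0.55, 2 were higher and 3 lower at an unadjusted p under 0.05. Cry2, a repressor of the clock, differed by 0.39, its activator Arntl by -0.29 and Npas2, a partner of Arntl, by -0.23, with adjusted p-values of 0.322, 0.382 and 0.392.

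Epithelial lists showed little. Of 25 colonocyte markers 20 had negative differences, with a median of -0.07, and 0 were called or had an unadjusted p under 0.05. Krt20, a keratin of mature surface epithelium, was at 13.86 to 14.18 in anti-TWEAK mice and 13.93 to 14.22 in control IgG mice, so colon epithelium was well represented in both groups. The goblet cell markers had a median of -0.00 and ranged from -0.16 to 0.32. Retnlb, an antibacterial protein, had the smallest p of them (difference 0.27, adjusted p = 0.424). Lgr5, a marker of crypt stem cells, differed by -0.27 (adjusted p = 0.423). Of 15 genes of TWEAK-responsive epithelium and repair, 0 were called, and Sprr1a, an envelope protein induced in injured epithelium, had the smallest p (-0.66 ± 0.33, SE, adjusted p = 0.472). Cell cycle genes differed by -0.25 to 0.12 with 0 of 24 called, and apoptosis genes by -0.13 to 0.15 with 0 of 16 called. The T and NK cell markers, B and plasma cell markers and MHC class II genes also had 0 calls.

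The count of called genes depended on mice 6 and 7. Without both, 300 genes were called, 136 higher and 164 lower in the remaining 6 anti-TWEAK mice. Both genes called with all mice were still called. Because these mice were left out after their low inflammation was seen, that count describes the other 6 and is no test of the treatment. Without them, 5 of 21 monocyte and macrophage markers and 3 of 15 endothelial markers were called higher, where 136 of all 12534 genes were. Of 25 colonocyte markers 3 were called lower, where 164 of all 12534 genes were. In the same refit 1 of 13 TWEAK and TNF pathway genes and 1 of 5 non-canonical NF-kB targets were called higher. Of 28 canonical NF-kB targets 1 was called lower. Of the 14 heat shock genes 2 were called lower, while 7 of the 14 had positive differences. The neutrophil markers then had a median of 0.92, against -0.15 with all mice, and the canonical NF-kB targets 0.33, against 0.09. Of the remaining 6 mice 4 were pancreas-positive. Down-weighting arrays by their fit, which gave mice 6 and 7 the lowest weights of the 16 (0.48 and 0.39), led to 111 calls.

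The same antibody at the same dose was tested in experiment 10, with 6 anti-TWEAK and 7 control IgG mice, and no array is shared. There 1685 genes were called (13.4%), 1030 higher and 655 lower. The anti-TWEAK change differed between the experiments for 295 genes (2.35%), 73 of them higher and 222 lower in experiment 7 than in experiment 10, and 269 of the 295 had opposite signs. Of the 295, 241 were called in experiment 10, and the experiment 7 change was the larger in size for 41. In experiment 7, 117 of the 295 had an unadjusted p under 0.05, where 11.1% of all genes did. The 295 were chosen in part by that same change. Across genes, the changes of the 2 experiments had a Pearson correlation of -0.31 as a description, where genes are not independent. Pancreas-positive arrays went the opposite way in the 2 experiments. They were 4 of 8 anti-TWEAK and 1 of 8 control arrays in experiment 7, and 2 of 6 anti-TWEAK and 6 of 7 control arrays in experiment 10. With the pancreas mean as a covariate, the correlation was 0.06, 0 genes were called for the difference between experiments (limma), and 84 were called in experiment 10. The pancreas markers differed between the treatment groups in both experiments, so this fit cannot separate pancreatic RNA from treatment. The part of pancreatic RNA in the difference between experiments was not tested.

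Among the genes with the largest called differences between experiments, Nr1d1, the clock repressor Rev-erb alpha, was at 6.27, 7.69 and 8.65 in anti-TWEAK mice of experiment 7, against 7.25, 8.14 and 9.06 in its control IgG mice. In experiment 10 it was at 7.87, 8.28 and 8.80 in anti-TWEAK mice, against 6.09, 7.32 and 7.68 in control IgG mice, with no overlap. The differences were -0.58 and 1.22 (limma adjusted p of the difference = 0.0296). Itm2a, a membrane protein of the BRICHOS family, differed by 1.26 in experiment 7 and -0.70 in experiment 10 (adjusted p of the difference = 0.0453), and its level was 8.52 to 11.20 in anti-TWEAK mice of experiment 7, against 7.80 to 8.87 in control IgG mice. Relb differed by -0.13 and 0.36 in experiments 7 and 10 (adjusted p of the difference = 0.0299) and Tnip1 by 0.02 and 0.45 (adjusted p of the difference = 0.0287). Siglecf, a receptor of eosinophils, differed by -0.18 and 0.84 (adjusted p of the difference = 0.0107), and Sst, the hormone somatostatin, by -0.11 and 0.91 (adjusted p of the difference = 0.0107). In each of these 6 genes except Itm2a the larger change was in experiment 10. For Tnfrsf12a, which was called lower in experiment 10 (-0.45, adjusted p = 0.0486), the difference between experiments was not called (adjusted p = 0.558).

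**Figure D5:**
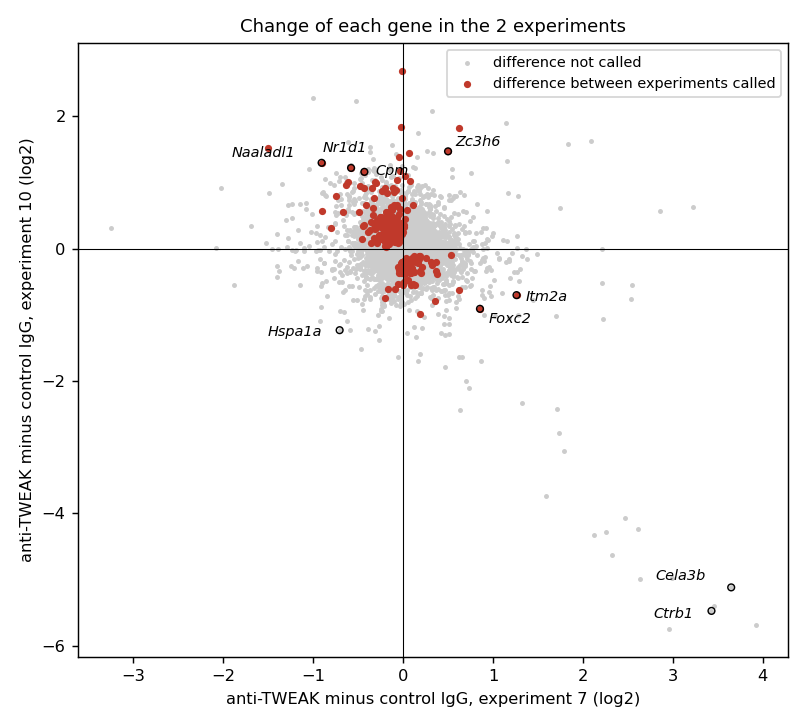
Log2 change of each of 12534 genes under anti-TWEAK in experiment 7 (horizontal axis) and experiment 10 (vertical axis); red points are the 295 genes whose change differed between experiments. The pancreas genes Ctrb1 and Cela3b lie at the lower right, and most red points lie close to 0 on the horizontal axis.

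The genes of smallest p in experiment 7 did not all have the same sign in experiment 10. Noct differed by -0.36 in experiment 7 and 0.09 in experiment 10 (adjusted p of the difference = 0.0107), and Cyp26b1 by 1.07 and -0.15 (adjusted p of the difference = 0.127). Trappc13 differed by -0.29 in experiment 7 and -0.13 in experiment 10 (adjusted p = 0.0375 there). Chordc1 differed by -0.30 and -0.45 (adjusted p = 0.0036 in experiment 10), Taf12 by -0.22 and -0.21 (adjusted p = 0.0364) and Chchd4 by -0.31 and -0.24 (adjusted p = 0.025). Of the 14 heat shock genes, 0 were called in experiment 7 and 8 were called lower in experiment 10, where 655 of all 12534 genes were. In experiment 10 Dnaja1 differed by -0.58 (adjusted p = 0.00117) and Hspa1b by -0.78 (adjusted p = 0.0068). The experiment 10 calls given here are from the fit without the pancreas covariate or a replicate block. With the covariate 84 genes were called there, and with the block 0. Zc3h6, a zinc finger protein, differed by 0.50 and 1.47 (adjusted p = 0.00296 in experiment 10 and 0.0208 for the difference between experiments). Gad2, a GABA-synthesising enzyme of neurons, differed by -0.71 and -0.95 (adjusted p = 0.027) and Cry2 by 0.39 and 0.41 (adjusted p = 0.0196). Of the 215 genes with an unadjusted p under 0.05 in experiment 7 and a call in experiment 10, 148 had the same sign, and of 433 genes with an unadjusted p under 0.05 in both, 269 did. Over all genes tested 49.02% had the same sign.

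Other treatments of experiment 7 were set against the same 8 control arrays, so their values cannot be read as independent of those above. The combination of anti-TWEAK with TNFR-Ig, a soluble TNF receptor fusion given at 0.3 mg/kg, had 311 calls (2.48%). TNFR-Ig alone, with 6 arrays, had 0 calls in limma and 710 genes (5.66%) at an unadjusted p under 0.05. No antibody dose is given for the TNFR-Ig mice, while the control IgG mice received 10 mg/kg. In that comparison TNFR-Ig and the absence of the control antibody cannot be told apart. The arrays of combination mice 7 and 8 were in another run than the control arrays. Pancreas markers averaged 9.50 in combination mice and 7.43 in TNFR-Ig mice, against 4.88 in control IgG mice. The part of run and of pancreatic RNA in these counts was not tested. Tnfrsf12a differed by -0.15 under anti-TWEAK, -1.08 under the combination (adjusted p = 0.039) and -0.35 under TNFR-Ig. Trappc13 differed by -0.29 under anti-TWEAK, -0.50 under the combination (adjusted p = 0.0295) and -0.21 under TNFR-Ig. Vwf differed by 0.57, 0.26 and 0.60 under the same 3 treatments, and Hspa1b by -0.51, -0.49 and -0.40.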

How the data were processed

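Colon RNA was hybridised to Affymetrix expression arrays, 1 per mouse. The authors deposited 1 log2 value per probe set and array, with a floor of 2.08. RMA, GCRMA, R 2.11.1 and limma 3.4.5 are named per the submitters' processing notes, and the step that produced these values is unstated. The number of arrays limits the precision.

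Of 45101 probe sets, 34945 have 1 gene symbol in the platform annotation, 932 several, 9160 none, and 64 are controls. Symbols were updated by Entrez identifier (99.42% matched), each of 18193 genes took its probe set of highest mean, and genes with a mean under 2.42, the 40th percentile, were left out. The 12534 remaining genes were tested with limma 3.58.1 in R 4.3.3 (lmFit and eBayes, two-sided) on the 16 arrays, with Benjamini-Hochberg adjustment over all of them, and called at an adjusted p under 0.05. The difference between experiments was an interaction contrast over the 4 groups. Levels at or within 0.1 of the floor count as at the floor. The procedure was tested on simulated data. Plots used Python 3.11.15 with matplotlib 3.10.9.

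The named genes are the pathway genes, the 12 of smallest p in each direction where fewer were called, the 4 of smallest p in each of 36 lists, the 8 largest called differences between experiments in each direction, genes without overlap and those of largest SD, of which the text gives part. Predicted genes are counted but, with 1 exception, not named. The groups, lists and rules were chosen with earlier results of these data known, and the settings for mice 6 and 7 and for pancreas markers after their values were seen. List means are the mean log2 level of the tested members. Alternatives were other filters, probe sets, quantile normalization, array weights, other arrays in the fit, a replicate block and leaving out each array. Mouse numbers were not used to pair the groups, since nothing in the labels says that they mark a litter, cage or day. In experiment 7, 4 of 8 same-number correlations were over 0.1 (range -0.36 to 0.48), which does not settle it. No 2 arrays had identical values. Of the pathway genes, those without a usable probe set of their own were not analysed here.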

Additional observations from a re-analysis of the deposited data

Results flagged for a closer look

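Single values that stood far from the rest of their group occurred in 8 of the 168 groups of values examined, and chance gives about 1 in 20. Among genes, Tnfrsf12a had 1 control IgG mouse at 7.74 (the next was 8.82), Asb7 had 1 anti-TWEAK mouse at 12.28 (next 12.33) and Ypel4 had 1 anti-TWEAK mouse at 5.06 (next 4.71). The mean of the genes of TWEAK responsive epithelium and repair was 9.77 in anti-TWEAK mouse 2 (next 10.1) and 9.81 in control IgG mouse 6 (next 10.2). The hypoxia and glycolysis mean was 12.3 in anti-TWEAK mouse 8 (next 12.1), a mouse with pancreas markers. List means were rounded before this check, so the flags of the repair and hypoxia lists can rest on rounding. In control IgG mice, the mean of B and plasma cell markers was 7.45 in mouse 3 (next 6.51), and that of exocrine pancreas markers was 7.86 in mouse 8 (next 4.76).

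A difference of the anti-TWEAK change between experiments 7 and 10 was called for 295 genes, and for 0 with the pancreas mean as a covariate. The covariate fit cannot separate pancreatic RNA from treatment. Of the 8 largest in each direction, predicted genes left out, those higher in experiment 7 were Itm2a (1.96), Foxc2 (1.76), Tmem88 (1.24), Zbtb16 (1.18), Slc25a30 (1.15), Hhat (0.76), Chsy1 (0.65) and Loxl3 (0.63), each value being the change in experiment 7 minus that in experiment 10. Those lower in experiment 7 were Naaladl1 (-2.20), Vmn2r84 (-1.86), Nr1d1 (-1.80), Elavl2 (-1.59), Cpm (-1.59), Ifit1bl2 (-1.55), Slc34a2 (-1.46) and Ptprr (-1.42). Foxc2, a transcription factor of vessel development, differed by 0.86 in experiment 7 and by -0.91 in experiment 10. Slc34a2, an intestinal phosphate transporter, differed by -0.90 in experiment 7 and by 0.57 in experiment 10. Vmn2r84 lay near the floor in both groups of experiment 7.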

How the results depend on the processing

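The count of genes called between anti-TWEAK and control IgG mice (2) was 0 with no filter on dim genes, with every probe set tested, with quantile normalization, in a fit of all 72 arrays, in a fit of all arrays of experiment 7, with a replicate block and without the pancreas-positive arrays. It was 1 with the pancreas covariate, 111 with array weights, 39 at an adjusted p under 0.25, and 300 without anti-TWEAK mice 6 and 7. Leaving out 1 array in turn gave 0 to 15, with 15 without control IgG mouse 5. At an unadjusted p under 0.05 the count (1390) was 2731 with every probe set tested, 2859 with array weights, 2779 without mice 6 and 7, 803 without the pancreas-positive arrays, and 1081 to 1959 leaving out 1 array in turn. The count for the difference between experiments (295) was 1878 with array weights, 2870 at an adjusted p under 0.25, 2140 without mice 6 and 7, 0 with the pancreas covariate, and 120 to 842 leaving out 1 array in turn. The count in experiment 10 (1685) was 1083 in a fit of all 72 arrays, 0 with a replicate block, 4953 at an adjusted p under 0.25, 84 with the pancreas covariate, and 954 to 1975 leaving out 1 array in turn. The causes of these moves were not tested. Whether mouse numbers mark a shared factor is not known, and a call lost under the block says nothing of its size.

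Pathway genes near 0, none of them called, turned sign under some alternatives. With quantile normalization Nfkb2 was at 0.01 and Nfkbia at 0.01. With array weights Nfkbia was at 0.07, Nfkbib at 0.05 and Cyld at -0.02. Without mice 6 and 7 Tnfrsf12a was at 0.02, Nfkbia at 0.07, Nfkbib at 0.04 and Cyld at -0.03. Without the pancreas-positive arrays Tnfrsf1a was at -0.14, Tnfrsf1b at -0.21, Traf1 at 0.05, Traf5 at 0.15, Birc3 at -0.08, Nfkb2 at 0.18, Rela at -0.05, Nfkbie at -0.17, Tnfaip3 at -0.16 and Tnip1 at -0.10. With the pancreas covariate Tnfrsf1a was at -0.05, Tnfrsf1b at -0.03, Traf5 at 0.10, Nfkb2 at 0.06, Rela at -0.03, Nfkbie at -0.02, Tnfaip3 at -0.05 and Tnip1 at -0.03. Leaving out 1 array in turn gave -0.24 to 0.02 for Traf1, -0.11 to 0.03 for Traf5, -0.08 to 0.03 for Nfkb2, -0.01 to 0.04 for Rela, -0.02 to 0.03 for Nfkbia, -0.09 to 0.03 for Nfkbib, -0.05 to 0.05 for Tnfaip3, -0.01 to 0.05 for Tnip1 and -0.02 to 0.02 for Cyld.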
